A study of Mus musculus with 3 samples.

Results

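The 10 mouse genes that encode the classical, zinc-dependent histone deacetylases other than HDAC3 (Hdac1, Hdac2, Hdac4, Hdac5, Hdac6, Hdac7, Hdac8, Hdac9, Hdac10 and Hdac11) were examined as sites occupied by HDAC3 and by the barrier transcription factor KLF4. A peak was assigned to a gene when its nearest protein-coding gene end (GRCm38) belonged to that gene, or when it was centred inside the gene or within 1 kb of it. This gave 39 of the 57936 HDAC3 peaks and 36 of the 47155 KLF4 peaks, 75 of 105091 peaks in all. Members were therefore chosen by name and position, and neither peak height nor overlap between the factors was part of the rule. Earlier results of these data were known when the genes and call rules were chosen.

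The peaks came from chromatin immunoprecipitation followed by sequencing (ChIP-seq) on epidermis from the back of wild-type mouse embryos, collected at E18.5, shortly before birth. There was 1 library precipitated for HDAC3 (antibody Abcam ab7030), 1 precipitated for KLF4 (antibody R&D AF3158) and 1 input library without antibody, and all 3 shared tissue, age and genotype. The labels give neither the sex of the embryos nor whether animals were pooled. Since each antibody has a single library, nothing could be set against replicate error or tested, and intervals at 95% cover counting error only.

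Histone deacetylases remove acetyl groups from lysines of histones and other proteins and fall into classes by sequence. Class I enzymes are mostly nuclear, and most of them work in corepressor complexes. HDAC1 and HDAC2 together are known to be needed for stratification of mouse epidermis. Class IIa enzymes (HDAC4, HDAC5, HDAC7 and HDAC9) have weak activity of their own, bind MEF2 transcription factors, leave the nucleus when phosphorylated and can associate with HDAC3 through the corepressors NCoR and SMRT. Class IIb and class IV enzymes act largely outside chromatin.

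Promoter sequences are shown for the annotated starts that carried peaks of both factors, in Hdac5 and Hdac7, and for the 5′ start of Hdac9, a class IIa gene with no KLF4 peak. They are RefSeq sequences on GRCm38.p6, the 250 bases before the annotated start on the minus strand, written 5′ to 3′. Of the 10 genes, 8 had an entry in the promoter table; Hdac1 and Hdac10 did not. Capitals mark matches on either strand to CCACCC, the core of the KLF motif (GGGTGG on the other strand), or to GGGCGG, the GC box (CCGCCC on the other strand), and the Hdac7 stretch has none.
Hdac5, chr11:102230173-102230422: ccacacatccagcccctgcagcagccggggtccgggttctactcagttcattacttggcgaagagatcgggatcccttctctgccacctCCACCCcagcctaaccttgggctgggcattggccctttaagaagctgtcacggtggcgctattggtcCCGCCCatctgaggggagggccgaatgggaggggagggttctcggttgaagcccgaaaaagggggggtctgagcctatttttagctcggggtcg
Hdac7 internal start, chr15:97814864-97815113: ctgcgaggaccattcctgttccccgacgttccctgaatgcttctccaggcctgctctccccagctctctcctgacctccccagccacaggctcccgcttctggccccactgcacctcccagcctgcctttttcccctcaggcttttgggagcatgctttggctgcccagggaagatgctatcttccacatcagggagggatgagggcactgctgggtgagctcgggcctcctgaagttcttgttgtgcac
Hdac9, chr12:34917096-34917345: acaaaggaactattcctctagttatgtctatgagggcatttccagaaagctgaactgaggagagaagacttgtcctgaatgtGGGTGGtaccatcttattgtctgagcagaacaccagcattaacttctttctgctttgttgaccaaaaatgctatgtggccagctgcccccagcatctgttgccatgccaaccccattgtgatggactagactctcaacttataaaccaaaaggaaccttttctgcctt

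The matches after the start of the first 2 genes are shown in 30-base stretches, with an E-box (CACGTG) in Hdac5 and an AP-1 motif (TGANTCA) in Hdac7 in capitals. CACGTG and TGANTCA read the same on both strands.
Hdac5, chr11:102230143-102230172: ggtCACGTGacgagagtgacgtctccgaat
Hdac7 internal start, chr15:97814823-97814852: agctgagcagcTGAGTCActcagtagctgg

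All 10 genes had at least 1 HDAC3 peak inside the gene or within 1 kb of it, where 50.9% of 21883 protein-coding genes had one. For KLF4 the number was 8 of 10, with Hdac6 and Hdac9 lacking any, against 49.0% of all protein-coding genes. These shares do not allow for gene length. Per 100 kb of gene, the 10 genes held 2.01 HDAC3 and 1.69 KLF4 peaks, against 2.79 and 2.35 over all protein-coding genes, and without Hdac9 they held 3.73 and 3.88. Most peaks lay inside the genes, 31 of 39 for HDAC3 and 26 of 36 for KLF4. Longer genes did not always hold more peaks: Hdac5, of 34.4 kb, held 4 HDAC3 and 6 KLF4 peaks inside, while Hdac9, of 870 kb, held 6 and 0, and Hdac8, of 221 kb, held 1 of each.

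**Figure D1:**
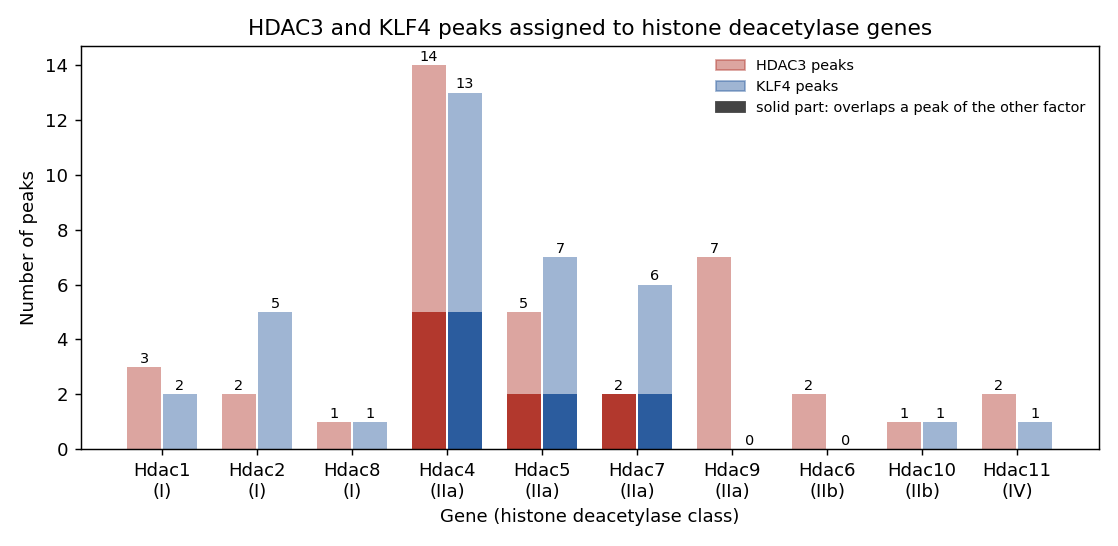
Number of HDAC3 (red) and KLF4 (blue) peaks assigned to each of the 10 genes, ordered by class; the solid part of a bar counts peaks that overlapped a peak of the other factor. Overlapping peaks are seen at Hdac4 (5), Hdac5 (2) and Hdac7 (2) and at no other of the 10 genes.

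Of the 10 genes, only Hdac4, Hdac5 and Hdac7, all class IIa, had HDAC3 and KLF4 peaks that overlapped. An overlap was a shared stretch of at least 1 bp, that is, centres at most 184 bp apart. It was found for 9 of the 39 HDAC3 peaks (23.1%, exact Clopper-Pearson interval 11.1 to 39.3) and 9 of the 36 KLF4 peaks (25.0%, 12.1 to 42.2). In the whole lists 25.8% of HDAC3 peaks and 31.7% of KLF4 peaks overlapped the other factor, so the shares over the 10 genes were close to the background. All 9 pairs lay inside Hdac4, Hdac5 or Hdac7. Over the 4 class IIa genes, Hdac9 included, 9 of 28 HDAC3 peaks (32.1%, 15.9 to 52.4) and 9 of 26 KLF4 peaks (34.6%, 17.2 to 55.7) overlapped. Both intervals hold the shares of the whole lists. Hdac4 alone gave 14 of these HDAC3 and 13 of these KLF4 peaks. The intervals treat peaks as independent, which peaks of the same gene need not be. Inside a gene or within 1 kb of it, 24.0% of protein-coding genes had such a pair, against these 3 of the 10 members. None of the 11 HDAC3 peaks of the class I, IIb and IV genes overlapped a KLF4 peak (upper limit 28.5%), nor did any of their 10 KLF4 peaks overlap an HDAC3 peak (upper limit 30.8%). The difference between the classes was not tested. Their peaks also differed in height, with a median HDAC3 score of 29 in class IIa and 21 in the other classes, and a median KLF4 score of 82 in class IIa and 54.5 in the others. The score is the position-adjusted tag number that the authors' caller gave each peak, and it serves here to order peaks of the same list. By score, the 11 HDAC3 peaks of the class I, IIb and IV genes lay in deciles 2 to 7, counted from the lowest. In these deciles of the whole list, 2.64% to 24.0% of HDAC3 peaks overlapped a KLF4 peak. Their 10 KLF4 peaks lay in deciles 2 to 9, where 18.6% to 47.2% of all KLF4 peaks overlapped an HDAC3 peak.

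Across all 10 genes, HDAC3 peaks had a median score of 25.0 (quartiles 19.5 and 35.0), against 22.0 (18.0 and 32.0) over all HDAC3 peaks on chromosomes. KLF4 peaks had a median of 76.5 (57.5 and 115), against 65.0 (40.0 and 107) over all KLF4 peaks. The highest decile of the HDAC3 list held 5 of the 39 peaks, from Hdac4, Hdac5 and Hdac7, and 4 of these overlapped a KLF4 peak, where 86.5% did in that decile of the whole list. The highest KLF4 decile held 4 of the 36 peaks, from the same 3 genes, and 3 of these overlapped an HDAC3 peak, against 68.4% in the whole list.

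**Figure D2:**
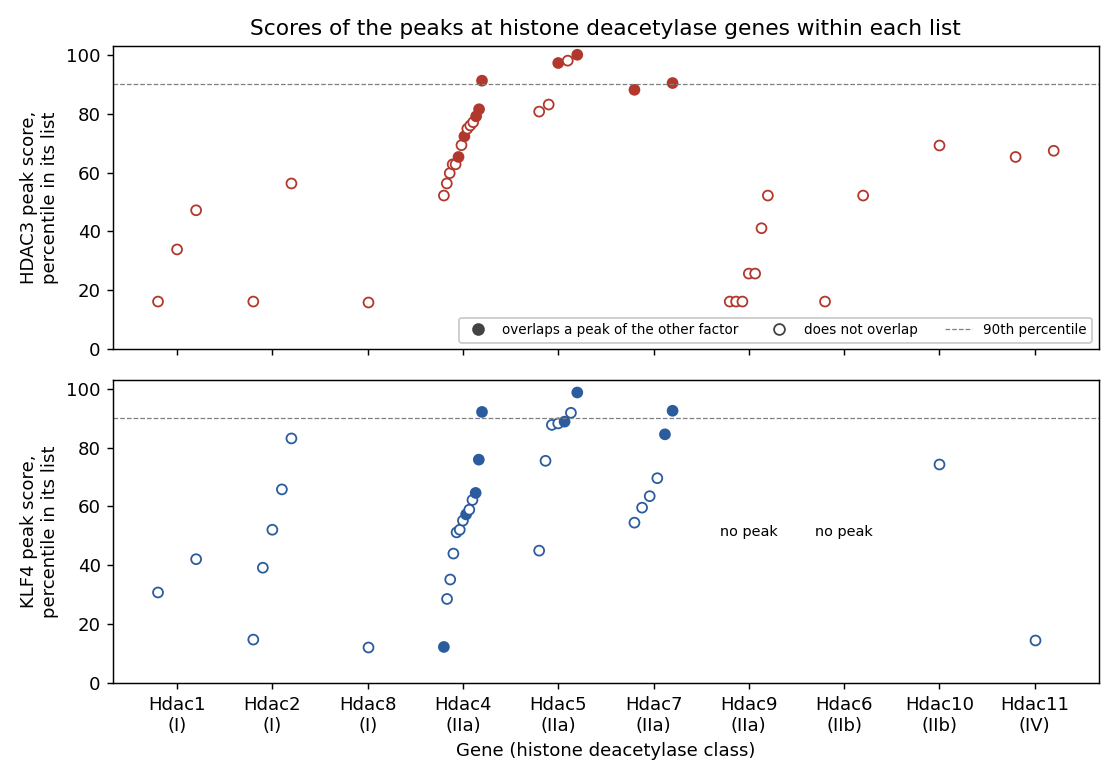
Percentile of each peak's score within its own list (0 lowest, 100 highest), for HDAC3 above and KLF4 below, by gene; filled points overlapped a peak of the other factor and the dashed line is the 90th percentile. Points above the line belong to Hdac4, Hdac5 and Hdac7, with the highest HDAC3 point at Hdac5, and Hdac6 and Hdac9 have no KLF4 point.

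Hdac5, on the minus strand of chromosome 11 (102195747 to 102230172), encodes a class IIa enzyme that represses MEF2 targets and is controlled by nuclear export. It carried the highest-scoring peak of each factor among the 10 genes. Its HDAC3 peak at 102211946 to 102212130, inside the gene and 18134 bp from the annotated start, scored 223 and tied for rank 5 of the 57936 HDAC3 peaks. Its signal was 56.7 (tags per 10000000 library tags), 15.9-fold over input (8.46 to 33.2, the counting interval from the ChIP tags and 10 input tags). The KLF4 peak there was centred 9 bp away, had a signal of 60.1 and a score of 349 (rank 612), and was 16.8-fold over input (8.98 to 35.1). The ratio of HDAC3 to KLF4 signal at this site, 0.943, was reached or passed by 23.0% of the 14962 overlapping pairs of the whole lists. Each signal is scaled to its own library, so a ratio orders sites and does not compare amounts of the factors.

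A further pair in Hdac5 was centred 1 bp apart, 7988 bp from the start for HDAC3. HDAC3 had a signal of 18.1 and a score of 83 there (8.40-fold over input, 3.73 to 23.4), and KLF4 a signal of 27.7 and a score of 164 (12.9-fold, 5.77 to 35.4). KLF4 had 3 more strong peaks inside the gene without an HDAC3 peak, with signals of 25.9, 26.4 and 31.4. These scored 160, 157 and 189 and lay 2045, 3650 and 1418 bp from the nearest HDAC3 peak. The HDAC3 peak of score 41 and the KLF4 peak of score 59 were 332 bp from each other, beyond the limit of overlap, and lay 6106 and 5774 bp from the 3′ end.

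At the start of Hdac5 an HDAC3 peak covered the start and a KLF4 peak lay next to it, wholly upstream. The HDAC3 peak at 102230139 to 102230323 spanned bases -151 to +34 counted from the annotated start as +1, with a signal of 18.1 and a score of 90 (7.20-fold over input, 3.37 to 18.4). The KLF4 peak spanned bases -352 to -168, with a signal of 17.6 and a score of 108 (6.98-fold, 3.28 to 17.8). Their centres were 201 bp apart, and the peaks shared no base. In the printed promoter, CCACCC stands in the gap between them, at -161 to -156, and the GC box at -94 to -89 and the E-box at +4 to +9 lie under the HDAC3 peak. The HDAC3 peak also touched the microRNA gene Mir8101, and another HDAC3 peak, of score 38 and signal 10.6, was centred 711 bp downstream of the start.

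Hdac7, on the minus strand of chromosome 15 (97792661 to 97844502), encodes a class IIa enzyme best known from blood vessel and thymocyte development. It had only 2 HDAC3 peaks, and each overlapped a KLF4 peak. The pair with centres 30 bp apart covered an internal annotated start at 97814863: the HDAC3 peak spanned bases -174 to +11 and the KLF4 peak bases -144 to +41. HDAC3 had a signal of 12.9 and a score of 49 there (17.9-fold over input, 4.77 to 150), and KLF4 a signal of 34.3 and a score of 197 (31.8-fold, 10.7 to 156). These wide intervals reflect 2 and 3 input tags. The printed window of this start has no match to CCACCC or GGGCGG on either strand, and its AP-1 match, at +23 to +29, lies under the KLF4 peak and beyond the edge of the HDAC3 peak.

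The other Hdac7 pair, 6143 bp from the nearest annotated start for HDAC3, was centred 86 bp apart. HDAC3 had a signal of 10.9 and a score of 54, and KLF4 a signal of 22.8 and a score of 139. KLF4 alone had 4 further peaks, of scores 70, 77, 83 and 94, the first of them outside the gene and over the neighbouring haem transporter gene Slc48a1. Those of scores 83 and 94 also lay over the gene Gm33636. For the peak of score 77 and the pair at the internal start, all inside Hdac7, the nearest protein-coding gene end was that of Slc48a1. None of the other 3 annotated starts of Hdac7 had a peak of either factor within 1 kb, the nearest being a KLF4 peak centred 4152 bp from the 5′-most start.

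**Figure D3:**
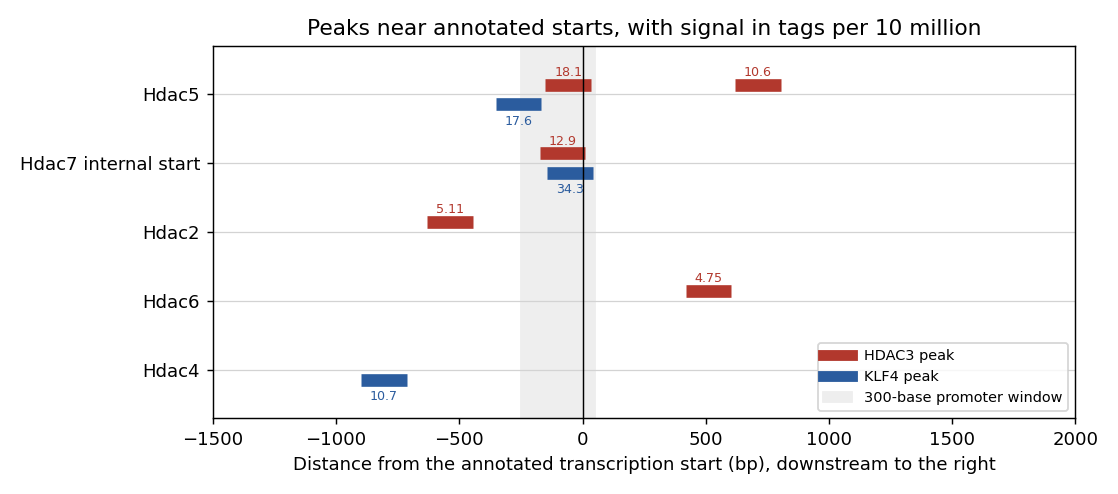
Peaks of HDAC3 (red) and KLF4 (blue), drawn to scale as bars of the peak width, around annotated starts with a peak within 1 kb; the x axis is the distance from the start in bp, the grey band the 300-base promoter window, and numbers are signals in tags per 10000000 library tags. At the internal start of Hdac7 the peaks lie on each other, and at Hdac5 they lie side by side. At Hdac2, Hdac6 and Hdac4 a single factor has a peak outside the window. The Hdac4 start shown also lies inside its gene, away from the 5′ end.

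Hdac4, on the minus strand of chromosome 1 (91928779 to 92195702), encodes a class IIa enzyme known as a repressor of chondrocyte hypertrophy. It had the most peaks, 14 for HDAC3 and 13 for KLF4, and 5 overlapping pairs along its 267 kb. The highest pair lay at the 3′ end, 405 bp inside the gene, at 91929092 to 91929276 for HDAC3 with the KLF4 centre 4 bp away. HDAC3 had a signal of 11.3 and a score of 56 there (10.6-fold over input, 3.42 to 52.0), and KLF4 a signal of 32.4 and a score of 193 (30-fold, 10.1 to 147). The other 4 pairs were weaker, with HDAC3 signals of 9.33, 7.40, 7.92 and 7.04 and centres 133, 8, 28 and 32 bp apart. KLF4 signals in these 4 pairs, in the same order, were 4.72, 12.4, 14.5 and 17.6. The ratio of HDAC3 to KLF4 signal was highest in the pair 133 bp apart, at 1.98, and lowest in the pair at the 3′ end, at 0.349.

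Hdac4 peaks of a single factor were spread over the gene and its 5′ flank. HDAC3 had 3 peaks outside the gene, 10650, 32787 and 74995 bp upstream of its 5′ end, of scores 25, 32 and 33. KLF4 had peaks 38372 and 64071 bp upstream, of scores 76 and 71, and 1 of score 58 beyond the 3′ end. The annotated start in the promoter table, at 92180341, had a KLF4 peak centred 806 bp upstream (signal 10.7, score 66) and no HDAC3 peak nearer than 3177 bp.

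**Figure D4:**
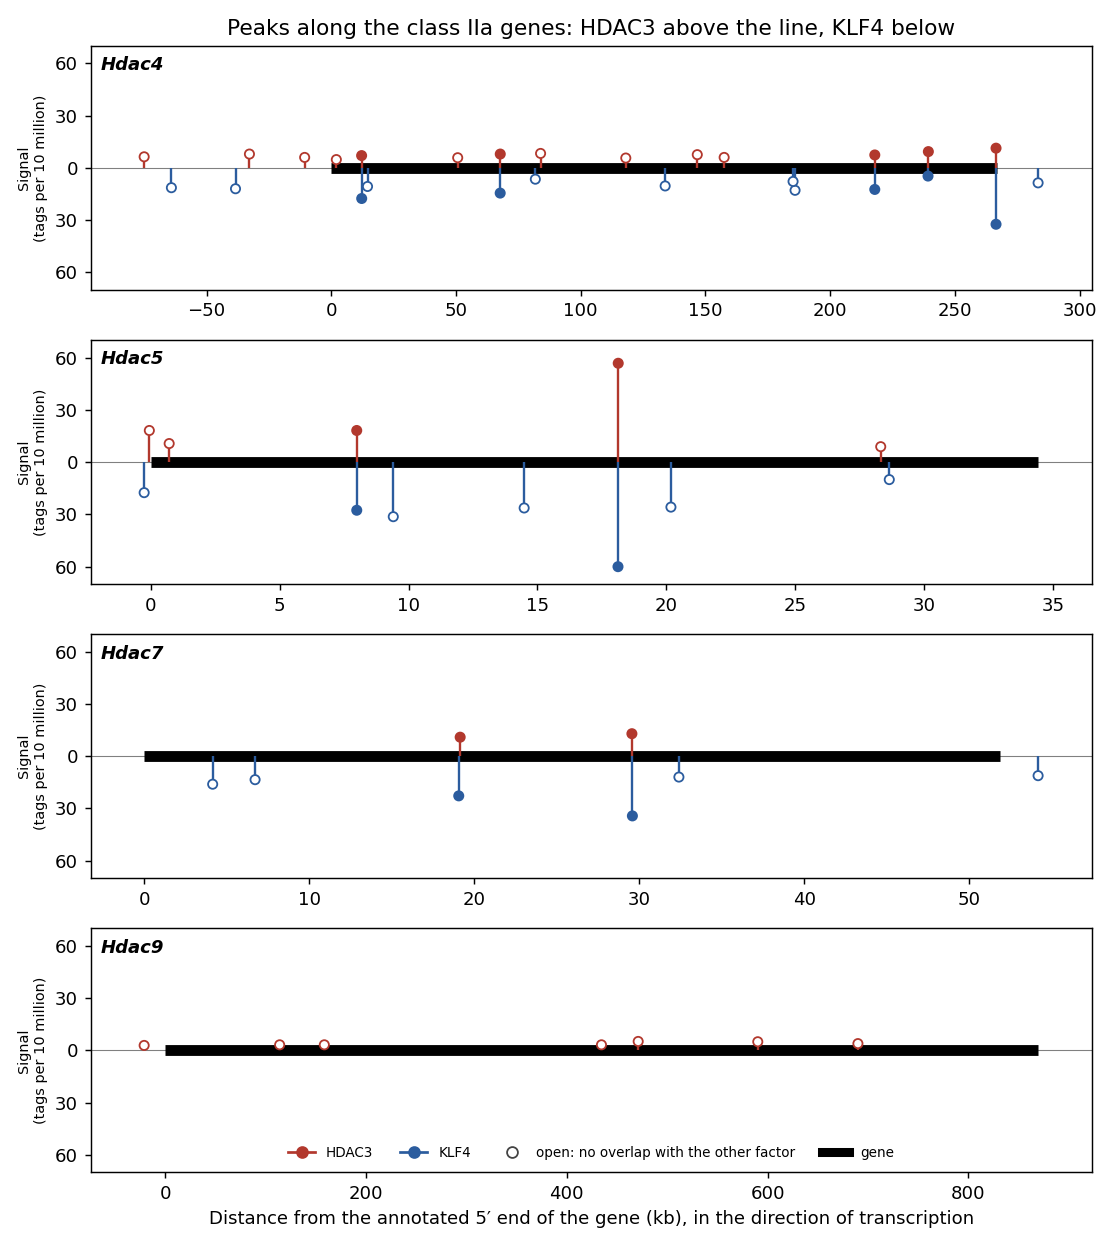
Signal of each peak in tags per 10000000 library tags along Hdac4, Hdac5, Hdac7 and Hdac9 against distance from the annotated 5′ end in kb, HDAC3 upwards and KLF4 downwards; filled points overlap a peak of the other factor and the black bar is the gene. The HDAC3 point of 56.7 and the KLF4 point of 60.1 stand opposite each other in Hdac5, while Hdac9 has HDAC3 points of at most 5.11 and no KLF4 point.

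Hdac9, a class IIa gene of 870 kb on chromosome 12 (34047580 to 34917095), differed from the other 3 in its values. Its 7 HDAC3 peaks had signals between 2.82 and 5.11 and scores between 17 and 22, close to 16, the lowest score in the HDAC3 list. Their folds over the local region were not low, at 4.88 to 11.7. HDAC3 peaks had local folds of 4.06 to 6.87 in Hdac4, 4.01 to 13.9 in Hdac5, and 4.81 and 5.89 in Hdac7. No KLF4 peak was assigned to it, and the KLF4 peak nearest to any of its HDAC3 peaks was 83234 bp away. Among the 85 protein-coding genes of at least its length, the median number of peaks inside was 9 for HDAC3 and 2 for KLF4, and 21 of the 85 had no KLF4 peak inside. The printed window of its 5′ start holds a CCACCC match at -168 to -163, written GGGTGG.

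The 9 pairs were set side by side in tags scaled to the input library, the unit in which the deposited lists give ChIP and input together. ChIP tags ranged over the pairs from 19.6 to 159.1 for HDAC3 and from 13.1 to 167.8 for KLF4, and input tags from 2 to 10. The ratio of HDAC3 to KLF4 signal had a median of 0.546 (0.349 to 1.98), against 0.652 over all 14962 pairs. Centres were a median of 28.0 bp apart, against 31.0 bp over all pairs. Both lists were called against the same input, and what a shared input adds to these overlaps was not tested. In the pair centred 9 bp apart in Hdac5, input held 10 tags (exact Poisson interval 4.80 to 18.4). In the pair centred 1 bp apart it held 6 tags (2.20 to 13.1). An even spread over the caller's genome size would leave 2.57 per peak width, which only the interval of the 6 tags holds.

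**Figure D5:**
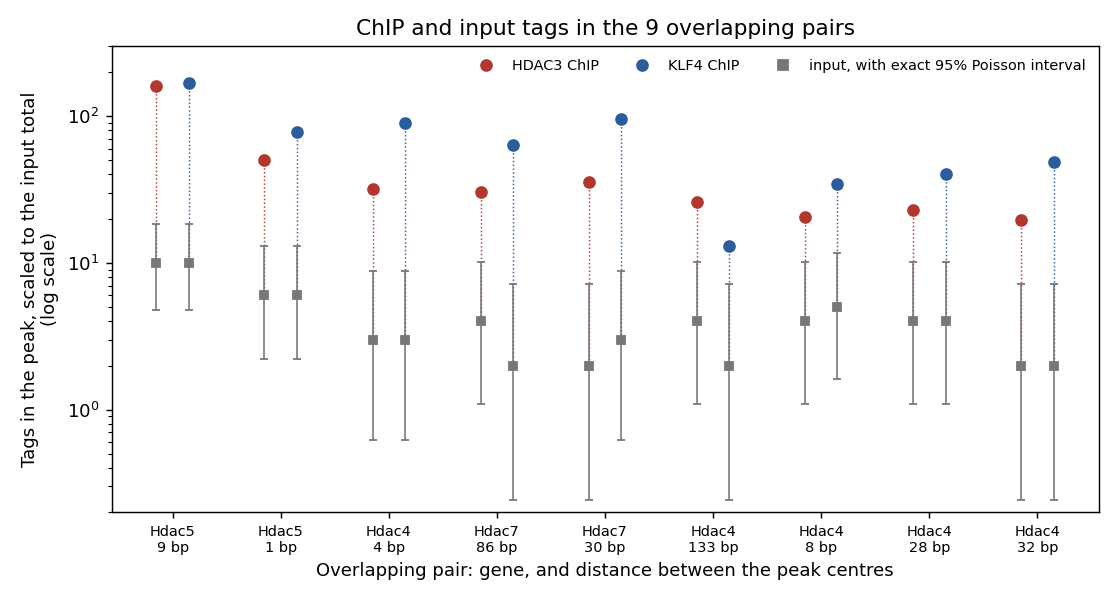
Tags in the 9 overlapping pairs, scaled to the input total and on a log axis, for HDAC3 (red) and KLF4 (blue), with the input tags of the same peak as grey squares with exact 95% Poisson intervals; pairs are ordered by HDAC3 score. ChIP points lie above the input interval in each of the 18 peaks, with the highest at Hdac5 (159.1 for HDAC3, 167.8 for KLF4) and the lowest at Hdac4 (13.1 for KLF4). The caller listed only peaks at least 4-fold over this input, so ChIP above input was a condition of listing.

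Among the class I genes, Hdac2, which encodes a catalytic subunit of the Sin3, NuRD and CoREST complexes, had its factors at opposite ends. The HDAC3 peak, at chromosome 10, 36973914 to 36974098, was centred 538 bp upstream of the annotated start, with a signal of 5.11 and a score of 23 (4.73-fold over input, 1.47 to 24.3). KLF4 had no peak near the start but 5 around the 3′ end. The highest was 4717 bp inside the gene, with a signal of 22.0 and a score of 133 (30.5-fold over input, 8.30 to 255). The other 4 followed within 18433 bp beyond the gene, with signals of 14.7, 5.05, 8.63 and 10.9. An HDAC3 peak of score 17 lay 46756 bp beyond the 3′ end, in a place with no input tag.

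Hdac1, which encodes the paralogue of HDAC2 in the same complexes (chromosome 4, 129516104 to 129542646), had KLF4 peaks on each side of its upper end. They were centred 664 bp inside, with a signal of 7.0 and a score of 45, and 562 bp outside, with a signal of 8.95 and a score of 56. The outer peak had no input tag, and its counting interval began at 6.53-fold over input. Its 3 HDAC3 peaks scored 21, 17 and 19, and the nearest to that end was 2118 bp outside it. Hdac8, known for deacetylating the cohesin subunit SMC3, had 1 peak of each factor, 52339 bp apart and both low (HDAC3 signal 4.05, score 17, and KLF4 signal 4.56, score 29). Both peaks lay inside Hdac8 and also over the gene Gm32262.

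Of the class IIb genes, Hdac6, the gene of the cytoplasmic tubulin deacetylase, had 2 HDAC3 peaks and no KLF4 peak. The HDAC3 peak nearest to its start was centred 509 bp downstream, with a signal of 4.75 and a score of 22 (4.40-fold over input, 1.36 to 22.7), and the other scored 17. Hdac6 and Hdac8 lie on the X chromosome, where peaks were sparse: protein-coding genes held 0.861 HDAC3 peaks per 100 kb on X against 2.89 on the autosomes, and 0.874 KLF4 peaks against 2.43. Hdac6 itself, a short gene, held 11.2 HDAC3 peaks per 100 kb, with a counting interval of 1.35 to 40.3. Hdac8 held 0.453 of each factor (0.0115 to 2.52). The part of copy number or of the sex of the embryos in these values was not tested. Hdac10, which encodes a polyamine deacetylase, had an HDAC3 peak 68 bp inside its lower end (chromosome 15, 89123279 to 89123463), with a signal of 6.16 and a score of 28. The KLF4 peak was 97 bp inside its upper end, with a signal of 16.9 and a score of 105, and also lay over the noncoding gene Gm46530. The table of genes gives no strand for Hdac1 or Hdac10, so these ends cannot be called start or 3′ end.

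Hdac11, the class IV gene, whose product removes fatty acyl groups from lysines, had 2 HDAC3 peaks inside the gene. Their signals were 7.22 and 5.99 and their scores 26 and 27, and the KLF4 peak of score 31 was 1996 bp from the nearer. Hdac3 itself had no peak of either factor nearest to it or within 1 kb.

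Counted at gene ends, meaning a peak centre within 1 kb of either annotated end, 5 of the 10 genes carried HDAC3 (Hdac2, Hdac4, Hdac5, Hdac6 and Hdac10), where 18.9% of protein-coding genes did. KLF4 was at an end of 5 (Hdac1, Hdac2, Hdac4, Hdac5 and Hdac10), against 23.1%. Both factors, at the same end or at different ends, were at 4 (Hdac2, Hdac4, Hdac5 and Hdac10), against 10.3%. In Hdac4 and Hdac5 the factors shared an end, while in Hdac2 and Hdac10 they were at opposite ends. The peaks just inside the limit lay 711 bp from an end in Hdac5 for HDAC3 and 746 bp at Hdac2 for KLF4, and those just outside it 1203 bp in Hdac6 for HDAC3 and 2331 bp at Hdac7 for KLF4. Within 5 kb the numbers were 7 for HDAC3, 6 for KLF4 and 5 for both, against 46.2%, 46.0% and 30.7% of protein-coding genes. At annotated starts alone, 8 members could be counted. HDAC3 was within 1 kb of a start of 4 (Hdac2, Hdac5, Hdac6 and Hdac7), KLF4 of 3 (Hdac4, Hdac5 and Hdac7) and both of 2, against 15.9%, 21.3% and 9.06% of 17491 protein-coding genes with an entry. A list of 10 genes gives coarse shares, and no list was tested.

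Over all 12 annotated windows of 300 bases of the 8 members, CCACCC matched in 5, GGGCGG in 6, TGANTCA in 2 and CACGTG in 1, searched on both strands, and no match shared a base with another. Of 32851 RefSeq promoter windows of this length, 31.5%, 35.7%, 7.81% and 7.15% held these motifs, in the same order. The windows of Hdac4 and Hdac6 each held 5 GC boxes, and neither window touched a peak of either factor. A match describes letters only, and no occupancy by a given factor was read from it.

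Lists of related genes, among them partners of these enzymes, were counted in the same way at gene ends. Of 7 sirtuins, the NAD-dependent deacetylases, 2 carried HDAC3 and 4 carried KLF4, with both at Sirt2 and Sirt7. Within 5 kb of an end, HDAC3 was at 7 sirtuins and KLF4 at 5. The highest sirtuin peak was KLF4 at Sirt6, a chromatin-bound sirtuin, with a score of 178. Of 30 partners of HDAC1 and HDAC2 in the Sin3, NuRD and CoREST complexes, 6 carried HDAC3, 6 carried KLF4 and 2 both. Within 5 kb, HDAC3 was at 21 of these partners and KLF4 at 16. The NuRD gene Gatad2b had scores of 39 for HDAC3 and 56 for KLF4 and the Sin3 gene Suds3 had 33 and 58, while Brms1, another Sin3 gene, had KLF4 alone at 271.

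Of 19 partners of class IIa enzymes, none carried HDAC3 and 5 carried KLF4 within 1 kb of an end. Within 5 kb, 8 carried HDAC3 and 10 carried KLF4, against 46.2% and 46.0% of protein-coding genes. Those with KLF4 within 1 kb included Mef2d, a MEF2 factor (KLF4 score 196), Sfn, the epithelial 14-3-3 sigma gene (217), and Ywhab, another 14-3-3 gene (109). Of 10 histone acetyltransferase genes, 3 carried HDAC3 and 3 carried KLF4 within 1 kb, and 7 and 9 did within 5 kb. Kat8, the H4K16 acetyltransferase gene, had both with centres 13 bp apart and scores of 79 for HDAC3 and 153 for KLF4. Hat1 had HDAC3 alone at 39 and Kat7 had KLF4 alone at 113. The percentages of all protein-coding genes given above apply to all 4 of these lists. They are 18.9% for HDAC3 and 23.1% for KLF4 within 1 kb, and 46.2% and 46.0% within 5 kb.

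The HDAC3 library held 56787485 tags with 3.95% in peaks, and the KLF4 library 61432711 tags with 6.81% in peaks. Peaks do not measure expression, so the tissue label could not be checked by transcript markers. At gene ends, HDAC3 was found at 3 and KLF4 at 4 of 8 keratinocyte genes, HDAC3 at 1 and KLF4 at 1 of 5 fibroblast genes, HDAC3 at 2 and KLF4 at 2 of 4 melanocyte genes, and neither at any of 4 immune genes, against 18.9% for HDAC3 and 23.1% for KLF4 over all protein-coding genes. Lists of this size do not tell the cell types apart.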

How the data were processed

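Peak lists of 1 HDAC3 and 1 KLF4 library were used, and the authors called peaks separately for HDAC3 and KLF4, each against the same input. The submitters' processing notes name HOMER, STAR and bcl2fastq and the build GRCm38.p5, with no role or version. Peak calling required, per the file headers, a fixed width of 185 bp, at least 4-fold over input and over the surrounding 10000 bp, at a false discovery rate of 0.001.

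The tag signal in the deposited lists is the tag number per 10000000 tags, and further columns give tags scaled by the authors to the input total and the input tags, where 0 is written as 0.5. The score is the authors' position-adjusted tag number. Folds over input and over the local region are ratios from the authors' caller, and its p-value and the focus ratio, a fraction, were read from the deposited lists and not used in any result. A calling minimum means that weaker sites are not listed.

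With Python 3.11.15, pandas 2.3.3 and scipy 1.17.1, peak centres were placed on RefSeq genes of GRCm38.p6 (21883 protein-coding on the autosomes, X and Y), and starts and strands were taken from the promoter table. Patch releases share coordinates. Peaks on unplaced contigs (16 for HDAC3 and 15 for KLF4) were left out of shares. Counting intervals on folds came from an exact binomial interval on ChIP against input tags, on input tags from an exact Poisson interval, and on shares from Clopper-Pearson. ChIP tags were recovered from the signal and the library total, and PCR copies are not independent molecules. Placement and overlap functions were tested on simulated data. The genes described, the gene lists and the call rules were chosen with earlier results of these data known; all 10 genes are described, with from each related list the 3 genes with the highest gene-end peak. Exons and introns were not used here. Alternatives were other windows, thresholds, overlap limits and gene sets.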

Additional observations from a re-analysis of the deposited data

How the results depend on the processing

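The counts are of peaks over the authors' limits and depend on them. With peaks at least 8-fold over input, 2 genes carried HDAC3 at an end, 2 KLF4 and 1 both, and 20 HDAC3 and 18 KLF4 peaks were left. With peaks at least 8-fold over the local region these numbers were 0, 2, 0, 7 and 14, and the share of KLF4 peaks that overlapped an HDAC3 peak was 7.14%, from 1 of 14 peaks. A window of 500 bp gave 3 genes with KLF4. At these stricter folds and at this window, shares over all protein-coding genes and over the whole peak lists were not counted. Whether the lower numbers are particular to these genes was therefore not tested. Counting annotated starts alone gave 3 with KLF4 and 2 with both. The other 28 of 42 recomputed values stayed within 1.5 times the reported count or within the interval of the reported share; overlap of the HDAC3 peaks ranged from 14.3% to 29.6%. The stricter folds keep fewer peaks and the window of 500 bp is shorter. Counting starts alone leaves out Hdac1 and Hdac10, which have no promoter entry, drops the 3′-end peaks of Hdac2 (KLF4) and Hdac4 (HDAC3), and adds Hdac7, which has peaks of both factors at an internal start. Input tags of 0 to 11 per peak limit the precision of each fold. No paired analysis was possible because there was 1 library per antibody, and no library could be left out.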
